A study of Mus musculus with 8 samples.

Results

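Liver expression of 7 genes that lie near human association signals for fatty liver other than TM6SF2 was compared between knock-in and wild type mice. The genes were Pnpla3, Hsd17b13, Mboat7, Tmc4, Lyplal1, Trib1 and Ppp1r3b, a list drawn up by name with earlier results of these data known. All 7 were among the 22180 genes that the array measured through a probe set with exactly 1 gene symbol, and all 7 were bright enough to be tested, among 13449 tested genes. Knock-in mice carried the E167K coding variant of Tm6sf2, and wild type littermates served as controls. Each group had 4 male liver samples labelled as strain C57BL/6J, each measured on 1 Affymetrix whole-transcript array. The labels give no age and contradict each other on diet: the text on the whole series names 20 weeks of high-fat diet, and the note of each sample names 14 weeks of high-sucrose, fat-free food or chow. Whether the 8 RNA samples came from 8 animals is not stated plainly, and the p-values cover only the spread among the arrays, which may be technical.

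As background, fatty liver arises when hepatocytes store more triglyceride than they burn or export, and human studies link a small set of genes to it. TM6SF2 helps to load very low density lipoprotein with lipid on its way out of the hepatocyte. Of the genes here, PNPLA3 and HSD17B13 are proteins of the lipid droplet, MBOAT7 remodels membrane phosphatidylinositol, TRIB1 steers the breakdown of transcription factors that control lipid synthesis, and PPP1R3B sets glycogen synthesis. LYPLAL1 is a hydrolase whose substrate in the liver is less clear, and TMC4 is the gene beside MBOAT7.

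The arrays were alike, with medians of 3.725 to 3.802 on the log2 scale. Of 10 hepatocyte markers, all were tested, and their mean level was 11.98 to 12.03 in knock-in and 11.92 to 12.05 in wild type arrays. Of 4 measured fat cell markers, Adipoq, Plin1 and Lep did not pass the filter on dim values, and Adipor2, which hepatocytes also express, averaged 11.04 in knock-in and 11.18 in wild type liver. None of the 5 listed red cell genes had a probe set of its own. Across all tested genes, 9 differed at an adjusted p under 0.05, 3 higher and 6 lower. The level of Tm6sf2 does not check the genotype labels, since the variant is a coding change. In bulk liver, fewer cells of a type and less RNA per cell cannot be told apart.

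None of the 7 risk genes passed the test across all genes (limma, Benjamini-Hochberg adjusted p of 0.294 to 0.950; 0.0669% of all tested genes passed). At an unadjusted p under 0.05 there was 1 of 7, Lyplal1, against 11.3% of all tested genes. Lyplal1 was also the single member whose knock-in and wild type arrays did not overlap, against 7.16% of all tested genes. Both counts are near those of the array as a whole. Of the members, 5 were higher and 2 lower in the knock-in, and 51.1% of all tested genes were higher. Their median change was 0.14 on the log2 scale, against 0.0046 over all tested genes. Their median absolute change was also 0.14, against 0.12 over all tested genes.

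**Figure D1:**
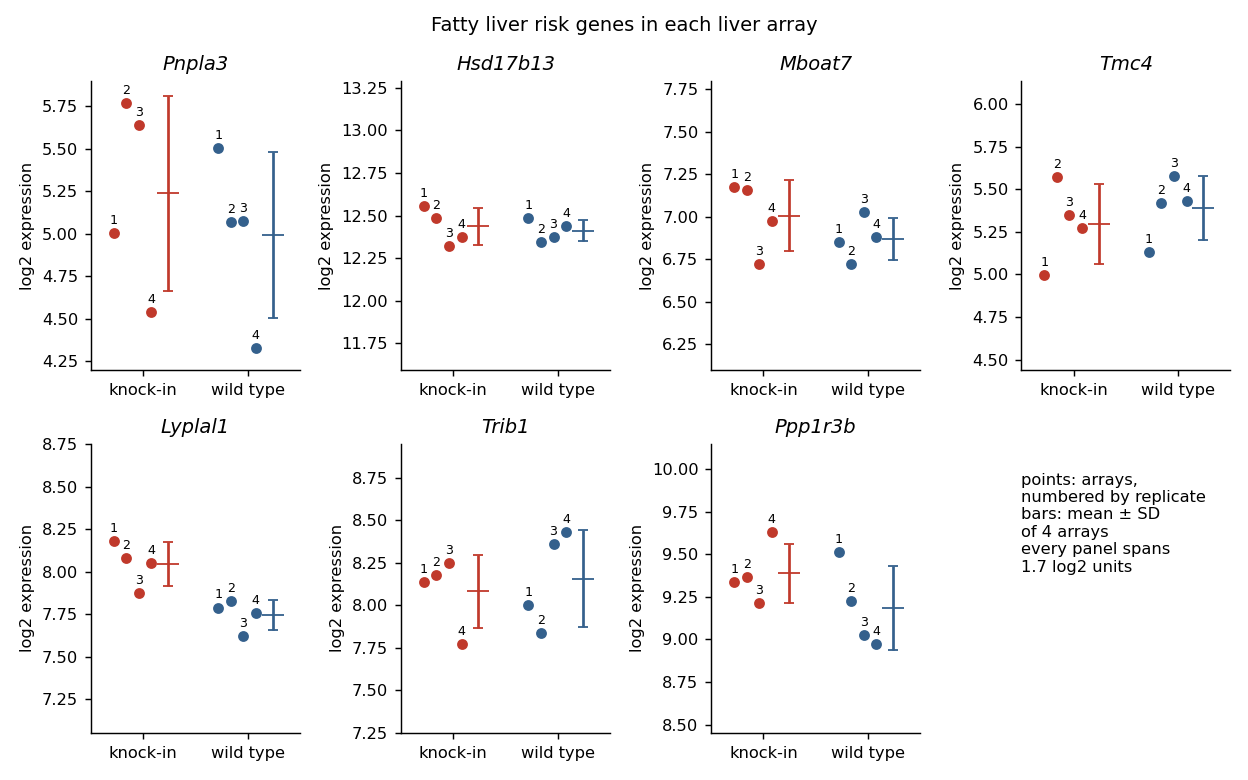
Log2 expression of each risk gene on each array, with knock-in arrays in red on the left and wild type arrays in blue on the right of each panel. Points are arrays numbered by replicate, bars are the mean ± SD of 4 arrays, and every panel spans the same number of log2 units. The 4 knock-in arrays of Lyplal1, at 7.87 to 8.18, lie above all 4 wild type arrays, and in the other 6 genes the groups overlap.

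Lyplal1 encodes lysophospholipase-like 1, a serine hydrolase related to the enzymes that remove palmitate from proteins. Its values were 8.18, 8.08, 7.87 and 8.05 in knock-in replicates 1 to 4, and 7.79, 7.83, 7.62 and 7.76 in wild type replicates 1 to 4. The lowest knock-in array thus lay above the highest wild type array. The means were 8.05 ± 0.13 in knock-in and 7.75 ± 0.09 in wild type liver (log2, SD, n = 4 each). The difference was 0.30 (SE 0.09), or 1.23-fold with a 95% interval of 1.06 to 1.43. Its unadjusted limma p was 0.0110 and its adjusted p 0.294, and 3.69% of all tested genes had a smaller p. The exact two-sided permutation p was 0.0286, the smallest that 4 against 4 arrays allow. The difference stayed between 0.25 and 0.39 under 17 alternative settings, which included leaving out each array in turn, and the unadjusted p was under 0.05 in all 17. The adjusted p missed the threshold in each of them, at 0.199 to 0.764. The filter, variance prior and replicate block settings cannot move the difference itself, only its p. Nor can the mean of probe sets, as Lyplal1 has only this probe set.

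The promoter of Lyplal1 is shown because, of the 7 members, this gene alone had no overlap between the groups, as 7.16% of all tested genes did. The window runs from 250 bases before to 50 after the annotated start, at chr1:186117261-186117560 on the minus strand (RefSeq, GRCm38.p6), 5′ to 3′ on that strand, with matches to searched motifs in capitals.
Lyplal1: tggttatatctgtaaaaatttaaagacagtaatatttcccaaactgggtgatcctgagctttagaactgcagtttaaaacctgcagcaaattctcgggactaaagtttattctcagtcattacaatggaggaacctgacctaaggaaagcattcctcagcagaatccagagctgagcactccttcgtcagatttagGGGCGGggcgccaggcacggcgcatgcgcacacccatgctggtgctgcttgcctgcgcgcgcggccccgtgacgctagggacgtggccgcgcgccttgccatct
The motifs were the GC box GGGCGG, the CCAAT box CCAAT, the E-box CACGTG, the sterol element TCACNCCAC, the TATA box TATAAA and the D-box TTATGTAA, each on both strands. The capitals mark 1 GC box, a motif held by 35.6% of 32817 promoter windows of this length. The window has 17 CpG sites, against a median of 7 over all windows. A match is a description of the sequence, not a binding site shown to be used.

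Related hydrolases were measured in a list of acyl-protein thioesterases, and 0 of 7 passed the test. In all, 6 were higher and 1 lower, with a median of 0.15, and 2 were higher at an unadjusted p under 0.05, against 51.1% higher and 11.3% at that p among all tested genes. These were Ppt2, a lysosomal thioesterase, at 0.27 (SE 0.10) and Abhd17a, a depalmitoylating hydrolase, at 0.26 (SE 0.10), with limma adjusted p of 0.340 and 0.363. In both, the knock-in and wild type arrays overlapped. The measured protein-coding neighbours of Lyplal1 on chromosome 1, Eprs and Tgfb2, differed by 0.02 (SE 0.08) and 0.04 (SE 0.18).

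**Figure D2:**
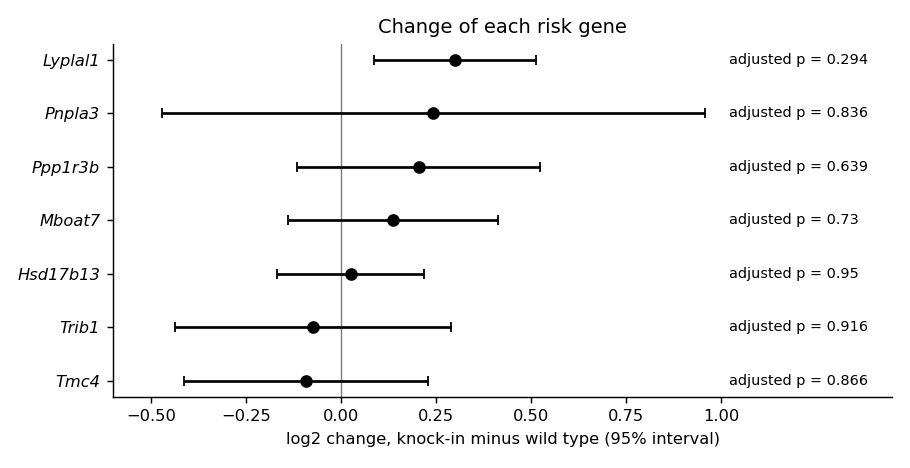
Log2 change of each risk gene, knock-in minus wild type, as a point with its 95% interval from the limma fit and its adjusted p over all tested genes. The interval of Lyplal1 runs from 0.09 to 0.51, and the intervals of the other 6 genes cross 0, the widest being that of Pnpla3.

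Pnpla3, the patatin-like phospholipase of lipid droplets also called adiponutrin, is a known target of the lipogenic factor SREBP-1c. It was the most variable member. Its values were 5.002, 5.77, 5.64 and 4.54 in knock-in replicates 1 to 4, and 5.50, 5.07, 5.07 and 4.33 in wild type replicates 1 to 4. Replicate 4 was the lowest array of each group, and the groups overlapped over most of their range. The means were 5.24 ± 0.57 in knock-in and 4.99 ± 0.49 in wild type liver (n = 4 each), a difference of 0.24 (SE 0.32, limma adjusted p = 0.836, exact permutation p = 0.486). The 95% interval allows anything between 0.72-fold and 1.94-fold. The pooled SD of Pnpla3 exceeded that of 96.9% of all tested genes. The difference was 0.021 without wild type replicate 4 and 0.48 without knock-in replicate 4. It was 0.066 without knock-in replicate 2, 0.11 without knock-in replicate 3 and 0.41 without wild type replicate 1.

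Srebf1, which encodes SREBP-1c, was at 8.17, 8.78, 8.36 and 8.25 in knock-in replicates 1 to 4, and at 7.50, 6.94, 7.72 and 7.35 in wild type replicates 1 to 4. Its groups did not overlap, with a difference of 1.01 (SE 0.19), but it missed the threshold over all genes (limma adjusted p = 0.111). A relation of Pnpla3 with Srebf1 was not shown over the 8 arrays (Pearson r = 0.42, permutation p = 0.297; Spearman rho = 0.52, permutation p = 0.197; Benjamini-Hochberg adjusted p = 0.792 and 0.807 over 42 relations). Without wild type replicate 2 and knock-in replicate 2, the arrays farthest from the median of Srebf1, r was 0.26. The knock-in array with the highest Srebf1, replicate 2, also had the highest Pnpla3, while wild type replicate 1 had high Pnpla3 at a Srebf1 level below every knock-in array.

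The promoter of Pnpla3 is shown beside this comparison, at chr15:84167566-84167865 on the plus strand (RefSeq, GRCm38.p6), with the same motifs in capitals.
Pnpla3: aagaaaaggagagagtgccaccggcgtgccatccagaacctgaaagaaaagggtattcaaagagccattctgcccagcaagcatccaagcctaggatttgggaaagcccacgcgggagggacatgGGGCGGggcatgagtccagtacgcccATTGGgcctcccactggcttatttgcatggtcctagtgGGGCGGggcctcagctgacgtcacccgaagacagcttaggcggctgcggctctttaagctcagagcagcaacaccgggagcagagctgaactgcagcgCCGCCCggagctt
The capitals mark 3 GC boxes and 1 CCAAT box, which 35.6% and 37.4% of all windows hold. The letters of the sterol element, found in 1.24% of all windows, do not occur in this window, which has 15 CpG sites.

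Of the other patatin-like phospholipases, 4 of 6 were bright enough to be tested and 0 passed, with 0 at an unadjusted p under 0.05. Pnpla8, a mitochondrial and peroxisomal phospholipase, was at -0.14 (SE 0.08) and Pnpla7, a lysophospholipase, at -0.11 (SE 0.11). Pnpla5, the neighbour of Pnpla3 on chromosome 15, was too dim to test, at 2.52 ± 0.19 in knock-in and 2.52 ± 0.30 in wild type liver. Samm50, the neighbour on the other side, part of the machinery that inserts proteins into the outer mitochondrial membrane, was higher by 0.17 (SE 0.11, limma adjusted p = 0.617). Among 10 tested transcription factors and partners known to act on Pnpla3, Hsd17b13 or Trib1, 0 passed, 7 were higher and 3 lower. Srebf1 was the single one at an unadjusted p under 0.05, against 11.3% of all tested genes. Cebpa, a hepatocyte factor, was higher by 0.19 (SE 0.09, limma adjusted p = 0.464).

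Hsd17b13 encodes a lipid droplet enzyme of hepatocytes that can oxidise retinol. It was the steadiest member. Its values were 12.56, 12.49, 12.32 and 12.37 in knock-in replicates 1 to 4, and 12.48, 12.34, 12.37 and 12.44 in wild type replicates 1 to 4. The knock-in range enclosed the whole wild type range. The means were 12.44 ± 0.11 in knock-in and 12.41 ± 0.06 in wild type liver (n = 4 each), a difference of 0.025 (SE 0.085, limma adjusted p = 0.950, exact permutation p = 0.686). The 95% interval was 0.89-fold to 1.16-fold, and the sign turned to -0.016 without knock-in replicate 1. The highest value on any array was 13.66, and whether differences are compressed toward that end of the scale was not tested.

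Of the other 17-beta hydroxysteroid dehydrogenases, 7 of 11 were tested and 0 passed, with 2 higher and 5 lower. Both genes at an unadjusted p under 0.05, a level that 11.3% of all tested genes reached, were lower. Hsd17b12, which works in the elongation of fatty acids, was at 9.80, 10.06, 9.77 and 9.92 in knock-in and 10.07, 10.08, 10.19 and 10.22 in wild type replicates 1 to 4. These groups did not overlap, as in 7.16% of all tested genes, with a difference of -0.25 (SE 0.09, limma adjusted p = 0.346). Hsd17b7, an enzyme of cholesterol synthesis, was at -0.31 (SE 0.13, limma adjusted p = 0.407), and at -0.20 without wild type replicate 3. Hsd17b11, the closest relative of Hsd17b13 and its neighbour on chromosome 5, was at 10.83 ± 0.13 in knock-in and 10.89 ± 0.18 in wild type liver, a difference of -0.05 (SE 0.11) that turned to 0.021 without wild type replicate 4.

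Mboat7 and Tmc4 are neighbours on chromosome 7. Mboat7 attaches arachidonic acid to lysophosphatidylinositol, and Tmc4 belongs to the transmembrane channel-like family of epithelial membrane proteins. Mboat7 was at 7.18, 7.16, 6.72 and 6.98 in knock-in replicates 1 to 4, and at 6.85, 6.72, 7.03 and 6.88 in wild type replicates 1 to 4. The lowest knock-in array lay below every wild type array and replicates 1 and 2 lay above all of them. The means were 7.01 ± 0.21 in knock-in and 6.87 ± 0.12 in wild type liver (n = 4 each), a difference of 0.14 (SE 0.12, limma adjusted p = 0.730, exact permutation p = 0.371) with an interval of 0.91-fold to 1.33-fold. The difference was 0.081 without knock-in replicate 1 and 0.087 without knock-in replicate 2, and leaving out wild type replicate 2 put it at 0.088. It was 0.23 when knock-in replicate 3 was left out.

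Tmc4 was at 4.998, 5.57, 5.35 and 5.27 in knock-in replicates 1 to 4, and at 5.13, 5.42, 5.58 and 5.43 in wild type replicates 1 to 4. The means were 5.30 ± 0.24 in knock-in and 5.39 ± 0.19 in wild type liver (n = 4 each), a difference of -0.09 (SE 0.14, limma adjusted p = 0.866, exact permutation p = 0.571). The interval was 0.75-fold to 1.17-fold. The sign turned to 0.0082 without knock-in replicate 1. A second and dimmer probe set of Tmc4 averaged 3.58 ± 0.22 in knock-in and 3.53 ± 0.44 in wild type liver, and lay above the dim limit on 5 of 8 arrays.

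Although the genes lie side by side, a relation of Mboat7 with Tmc4 was not shown over the 8 arrays, which are too few to exclude one (Pearson r = -0.07, permutation p = 0.861; Spearman rho = 0.05, permutation p = 0.935; adjusted p = 0.991 and 1.0 over 42 relations; r = 0.24 without knock-in replicates 1 and 2, the arrays farthest from the median of Mboat7). Their promoters are shown as a pair, both on the minus strand (RefSeq, GRCm38.p6), Mboat7 at chr7:3692937-3693236 and Tmc4 at chr7:3677504-3677803, with the same motifs in capitals.
Mboat7: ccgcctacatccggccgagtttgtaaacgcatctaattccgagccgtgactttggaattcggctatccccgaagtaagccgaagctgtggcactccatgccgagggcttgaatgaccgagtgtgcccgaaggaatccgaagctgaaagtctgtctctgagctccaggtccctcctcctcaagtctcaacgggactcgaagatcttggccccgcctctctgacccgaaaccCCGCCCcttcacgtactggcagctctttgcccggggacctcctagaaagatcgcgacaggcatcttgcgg
Tmc4: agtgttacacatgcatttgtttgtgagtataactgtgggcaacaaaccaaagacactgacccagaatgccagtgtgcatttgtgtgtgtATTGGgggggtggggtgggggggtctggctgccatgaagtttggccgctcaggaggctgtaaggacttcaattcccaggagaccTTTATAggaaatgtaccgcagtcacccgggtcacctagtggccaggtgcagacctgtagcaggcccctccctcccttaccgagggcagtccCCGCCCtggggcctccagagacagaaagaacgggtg
The Mboat7 window has 23 CpG sites and 1 GC box. The Tmc4 window has 6 CpG sites, 1 GC box, 1 CCAAT box and 1 TATA box, a motif held by 13.6% of all windows. RefSeq windows were at hand for 5 of the 7 members, and the fifth, that of Hsd17b13, has 3 CpG sites and none of the searched motifs.

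Tsen34, a subunit of the tRNA splicing endonuclease and the neighbour of Mboat7 away from Tmc4, was higher by 0.29 (SE 0.10) with no overlap between groups, and missed the threshold (limma adjusted p = 0.309). It averaged 5.98 ± 0.11 in knock-in and 5.68 ± 0.12 in wild type liver. Leng1, the neighbour on the side of Tmc4, was at -0.15 (SE 0.13). Of the 11 tested neighbours of all 7 members, 0 passed, 8 were higher and 3 lower. Tsen34 was the single one at an unadjusted p under 0.05, against 11.3% of all tested genes. Nsmce2, the neighbour of Trib1 and part of a chromosome maintenance complex, did not overlap between groups either, at 7.82 ± 0.08 in knock-in and 7.65 ± 0.04 in wild type liver (limma adjusted p = 0.472). Groups did not overlap in 7.16% of all tested genes.

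Of 13 tested lysophospholipid acyltransferases and enzymes of phosphatidylinositol synthesis, 0 passed, 5 were higher and 8 lower. The 2 at an unadjusted p under 0.05 were both lower, and 11.3% of all tested genes had such a p. Lpgat1, which acylates lysophosphatidylglycerol, was at 10.36, 10.31, 10.28 and 10.36 in knock-in and 10.54, 10.51, 10.52 and 10.53 in wild type replicates 1 to 4. These narrow groups did not overlap, as in 7.16% of all tested genes, with a difference of -0.20 (SE 0.07, limma adjusted p = 0.340). Lpcat4, a lysophospholipid acyltransferase, was at -0.34 (SE 0.09, limma adjusted p = 0.219). In the transmembrane channel-like family, 3 of 7 were tested and 0 passed. Tmc6, known in humans for its role in skin, was at 0.27 (SE 0.10) and Tmc7 at 0.31 (SE 0.22). Without wild type replicate 4, its highest wild type array, Tmc7 was at 0.55 (SE 0.12, limma adjusted p = 0.200), and with a clock score described later as a covariate at -0.41 (SE 0.24).

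**Figure D3:**
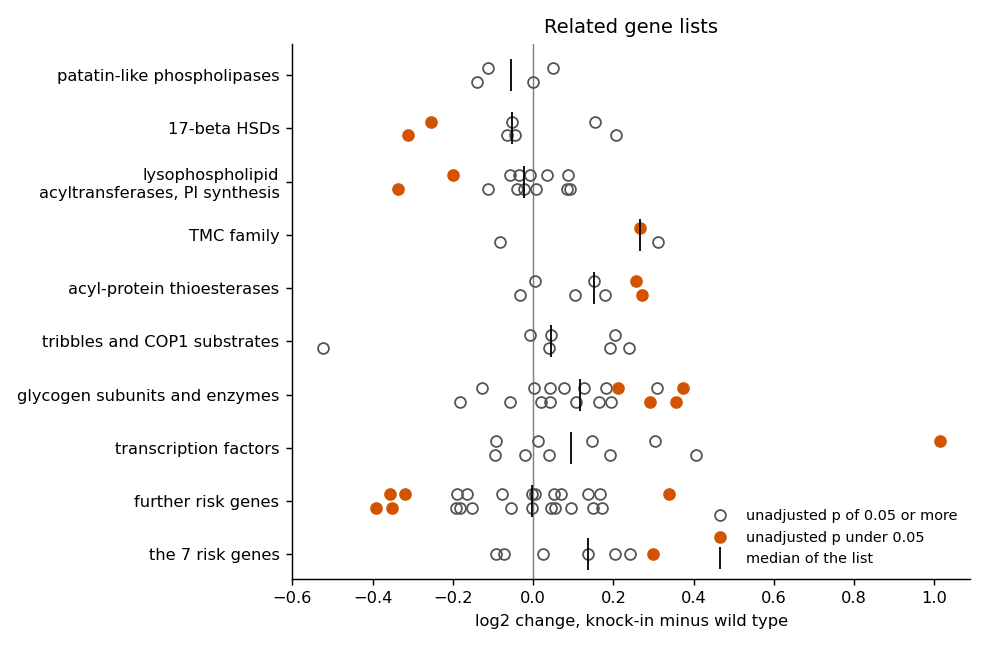
Log2 change, knock-in minus wild type, of each tested gene of 9 related lists and of the 7 risk genes in the lowest line. Filled points have an unadjusted limma p under 0.05, open points do not, and vertical bars are list medians. No gene shown passed the adjusted threshold, and Srebf1, at 1.01, lies farthest to the right.

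Trib1 and Ppp1r3b act on lipid synthesis and on glycogen. Trib1 is a pseudokinase that brings the ubiquitin ligase COP1 to C/EBPα. It was at 8.14, 8.18, 8.25 and 7.77 in knock-in replicates 1 to 4, and at 8.003, 7.84, 8.36 and 8.43 in wild type replicates 1 to 4. Wild type replicates 3 and 4 lay above every knock-in array, and knock-in replicate 4 below every wild type array. The means were 8.08 ± 0.21 in knock-in and 8.16 ± 0.28 in wild type liver (n = 4 each), a difference of -0.07 (SE 0.16, limma adjusted p = 0.916, exact permutation p = 0.657) with an interval of 0.74-fold to 1.22-fold. Leaving out wild type replicate 4 turned the sign, to 0.017, as did leaving out knock-in replicate 4, to 0.031.

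Ppp1r3b encodes the liver subunit that brings protein phosphatase 1 to glycogen, where it activates glycogen synthase. Its brighter probe set was at 9.34, 9.37, 9.22 and 9.63 in knock-in replicates 1 to 4, and at 9.52, 9.23, 9.03 and 8.97 in wild type replicates 1 to 4. All 4 knock-in arrays lay above the wild type mean, but wild type replicate 1 lay above 3 of them. The means were 9.39 ± 0.17 in knock-in and 9.19 ± 0.25 in wild type liver (n = 4 each), a difference of 0.20 (SE 0.14, limma adjusted p = 0.639, exact permutation p = 0.229). The interval was 0.92-fold to 1.44-fold. Without wild type replicate 1 the difference was 0.31 (SE 0.12), with a limma adjusted p of 0.407. It was 0.12 (SE 0.14) without knock-in replicate 4 and 0.13 (SE 0.15) without wild type replicate 4.

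The direction of Ppp1r3b depended on the probe set. A second probe set was at 7.57, 7.34, 7.11 and 7.64 in knock-in replicates 1 to 4, and at 7.86, 7.58, 7.41 and 7.11 in wild type replicates 1 to 4. It averaged 7.41 ± 0.24 in knock-in and 7.49 ± 0.31 in wild type liver, a difference of -0.08. Both probe sets were well above the dim limit on all 8 arrays and both placed wild type replicate 1 above replicates 2, 3 and 4. Ppp1r3b lies on chromosome 8, as does Tm6sf2, and its measured neighbours Tnks and Eri1 differed by 0.06 (SE 0.13) and 0.04 (SE 0.09).

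Trib1 and Ppp1r3b tended to run against each other over the arrays, though not between every pair of arrays. Over the 8 arrays Pearson r was -0.79 (permutation p = 0.0215) and Spearman rho -0.83 (permutation p = 0.0154). Among 42 relations examined, 21 between members and 21 of members with Srebf1, Mlxipl or Nr1h3, this was the one with a Pearson p under 0.05, and it did not pass adjustment (0.792 for r and 0.646 for rho). Without knock-in replicate 4 and wild type replicate 2, the arrays farthest from the median of Trib1, r was -0.99. Wild type replicate 2 was also the array apart from the line of the others, so this larger r is no check of the relation. For deviations from the group means r was -0.82. The dimmer probe set of Ppp1r3b, examined after these values were seen and outside the 42 relations, ran against Trib1 too (r = -0.73, unadjusted permutation p = 0.0443; rho = -0.81, permutation p = 0.0218). Between the probe sets of Ppp1r3b the relation was positive but short of 0.05 (r = 0.70, permutation p = 0.0525; rho = 0.71, permutation p = 0.0576). The next relation among members was that of Hsd17b13 with Mboat7 (r = 0.70, permutation p = 0.0575; rho = 0.76, permutation p = 0.0368; adjusted p = 0.792 and 0.772), and it dropped to r = 0.38 without knock-in replicates 1 and 3.

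**Figure D4:**
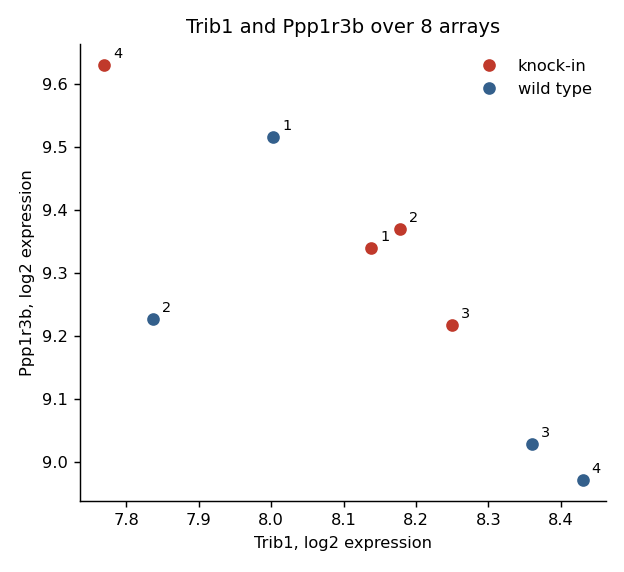
Log2 expression of Trib1 (x axis) against Ppp1r3b (brighter probe set, y axis) on the 8 arrays, knock-in in red and wild type in blue, numbered by replicate. Arrays with more Trib1 tended to have less Ppp1r3b in both groups, with wild type replicate 2 apart from the line of the others.

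Listed circadian clock genes also differed between the groups, though 0 passed the adjusted threshold. Per3, Ciart, Tef, Nr1d2 and Dbp were higher and Arntl, Npas2 and Clock lower. Each had an unadjusted limma p under 0.05, against 11.3% of all tested genes. They were chosen with earlier results of these data known, so a score built from them was set to follow genotype. A clock score, the mean of Per3, Ciart, Tef, Nr1d2 and Dbp minus the mean of Arntl, Npas2 and Clock, was 0.42, 1.65, 1.49 and -0.34 in knock-in replicates 1 to 4, and -1.77, -2.15, -1.44 and -0.17 in wild type replicates 1 to 4. All 4 wild type arrays were below 0, as was knock-in replicate 4, which lay below wild type replicate 4. As the score largely follows genotype, a fit that holds both separates them poorly. With this score as a covariate the difference of Trib1 was -0.59 (SE 0.19, unadjusted p = 0.0132, limma adjusted p = 0.707) and that of Ppp1r3b 0.56 (SE 0.20, unadjusted p = 0.0244, adjusted p = 0.761). Pnpla3 was then at -0.0020 (SE 0.57) and Lyplal1 at 0.39 (SE 0.17, adjusted p = 0.764). The part of the clock state in these values was not tested, and the time of day at which livers were taken was not known here.

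Around Ppp1r3b, 18 of 23 listed glycogen genes were tested and 0 passed. Of these, 15 were higher and 3 lower, with a median of 0.12, against 51.1% higher among all tested genes. The 4 at an unadjusted p under 0.05 were all higher, and 11.3% of all tested genes had such a p. Pygl, the liver glycogen phosphorylase, was at 10.02, 10.09, 9.89 and 9.99 in knock-in and 9.74, 9.66, 9.52 and 9.66 in wild type replicates 1 to 4, without overlap. Its difference was 0.35 (SE 0.09, limma adjusted p = 0.181). Gyg, which primes glycogen chains, was at 0.37 (SE 0.13), Gbe1, which branches them, at 0.29 (SE 0.12), and Ppp1ca, a catalytic subunit that Ppp1r3b can bind, at 0.21 (SE 0.08). Gys2, the glycogen synthase of liver, was at 11.59 on average in knock-in and 11.77 in wild type liver (difference -0.18, SE 0.16). With the clock score as a covariate Gyg was at 0.024 (SE 0.19), Gbe1 at 0.085 (SE 0.20) and Gys2 at -0.73 (SE 0.17, limma adjusted p = 0.560). Gys2 was at -0.053 without wild type replicate 4 and at -0.11 without knock-in replicate 4. Around Trib1, 0 of 7 tested tribbles genes and COP1 substrates passed, and 0 had an unadjusted p under 0.05. Trib2, another tribbles pseudokinase, was at -0.52 (SE 0.23, limma adjusted p = 0.443), and at -0.29 without knock-in replicate 1.

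Of 24 tested further genes near human signals for fatty liver or liver enzymes, 0 passed, 11 were higher and 13 lower, with a median of -0.0036. At an unadjusted p under 0.05, 1 was higher and 4 were lower, which is 5 of 24 against 11.3% of all tested genes. Abcb4, the phospholipid exporter of bile, was at -0.36 (SE 0.08, limma adjusted p = 0.180), and Grb14, an adaptor that inhibits the insulin receptor, at -0.32 (SE 0.08, limma adjusted p = 0.215). Grb14 was at 7.55, 7.63, 7.59 and 7.57 in knock-in and 7.995, 7.78, 7.84 and 8.003 in wild type replicates 1 to 4, without overlap. Irgm1, an interferon-induced GTPase, was at -0.39 (SE 0.11), Serpina1a, a mouse copy of the antitrypsin gene whose near-identical copies make its value uncertain, at -0.35 (SE 0.13), and Gckr, the regulator of glucokinase, at 0.34 (SE 0.11). With the clock score as a covariate Irgm1 was at -0.11, Serpina1a at -0.18 and Gckr at 0.54.

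The genes most like each member over the 8 arrays were those with the highest Pearson r among 13448 other tested genes, a search in which high values arise readily. They were Tusc1 for Pnpla3 (r = 0.98), Lrrc3 for Hsd17b13 (0.97), Hira for Mboat7 (0.97), C130050O18Rik for Tmc4 (0.97), Polr1a for Trib1 (0.98) and Dstyk for Ppp1r3b (0.98). The second were Tmem138 (0.94), Mterf4 (0.94), Acot6 (0.96), H2-Ab1 (0.95), Gpt2 (0.96) and Mir1954 (0.97) in the same order. For Lyplal1 they were Jchain (r = 0.97, rho = 0.98), a joining chain gene of plasma cells, and Egln2 (0.96). Jchain averaged 5.66 in knock-in and 4.63 in wild type liver (limma adjusted p = 0.184). It was picked for its likeness to Lyplal1, so its group difference is not a separate result. The whole list of 5 B and plasma cell markers was tested, with 3 higher and 2 lower. Apart from Jchain, Mzb1 was at 0.02, Cd79a at 0.06, Ms4a1 at -0.08 and Cd79b at -0.38. The mean level of the list, Jchain included, was 4.66 to 5.02 in knock-in and 4.42 to 4.95 in wild type arrays. The part of these cells in the level of Lyplal1 was not tested.

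**Figure D5:**
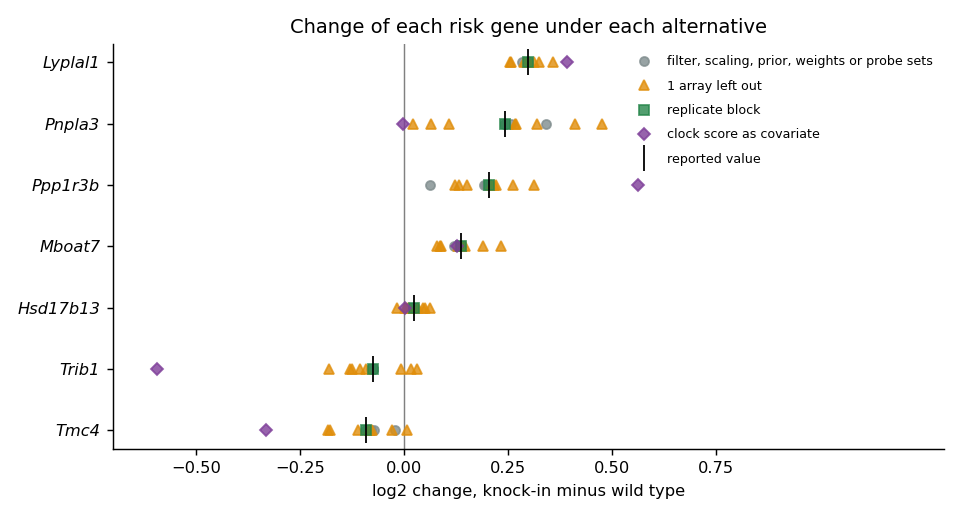
Log2 change of each risk gene, knock-in minus wild type, under each alternative setting, with the reported value as a black bar. Lyplal1 stays at 0.25 to 0.39 throughout, while Trib1 and Ppp1r3b move farthest with the clock score as a covariate, to -0.59 and 0.56. The filter, variance prior and replicate block settings cannot move a difference.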

How the data were processed

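The values used are the authors' deposited log2 expression levels of each probe set on each array, already normalized across arrays. Per the submitters' processing notes the tools were RMA and limma, with versions and build not given in the sources used here. Such normalization removes a shift shared by most genes. No detection calls were used, and the number of arrays limits precision.

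Of 41345 probe sets, 23521 had exactly 1 platform symbol, 1814 several and 16010 were not listed. The brightest probe set stood for a gene. Genes entered the test when 4 or more of the 8 arrays lay above the array's 40th percentile of 1-symbol probe sets, which left 13449 of 22180 genes. limma 3.58.1 (R 4.3.3) compared knock-in with wild type with genotype as the only term, two-sided, with Benjamini-Hochberg adjustment over all tested genes and a threshold of 0.05. Members also had an exact permutation test over the 70 ways to draw 4 arrays of 8. On simulated data for this comparison (13449 genes), the test recovered 82% of 100 genes changed by 1 on the log2 scale and 99% of 100 changed by 2. The simulated noise was normal and independent between genes. The largest difference of a member was 0.30, and recovery of changes of that size was not measured. The members and gene lists were chosen with earlier results of these data known. Named were the members, the 2 genes of each list with the smallest p, neighbours in RefSeq and the 2 genes most like each member. Irgm1, Gckr, Serpina1a, Gbe1, Ppp1ca, Gys2 and Adipor2 were added after their values were seen. The alternatives were the filter, a further quantile normalization, the variance prior, array weights, the mean of probe sets, the replicate number as a block, a clock score as a covariate and each array left out.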

Additional observations from a re-analysis of the deposited data

Results flagged for a closer look

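No array of the 7 risk genes stood apart from its group. Among 55 named genes, 110 groups of 4 arrays were examined, and in 7 of them 1 array lay far from the other 3 by Dixon's test, a rate that chance gives in about 1 of 20 groups. Tmc7 was at 7.43 in wild type replicate 4, against 6.44 to 6.56 in the other wild type arrays. Irgm1 was at 7.31 in knock-in replicate 4, against 7.02 to 7.05 in the other knock-in arrays. Lpcat4 was at 4.27 in knock-in replicate 3, against 4.33 in the others. Tgfb2 was at 3.88 in knock-in replicate 2, against 4.53 to 4.61. Egln2 was at 7.66 in knock-in replicate 3, against 7.84 to 7.87, and Gpt2 at 11.33 in knock-in replicate 4, against 11.56 to 11.60. C130050O18Rik was at 3.96 in wild type replicate 1, against 4.70 to 4.81 in the other wild type arrays.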

How the results depend on the processing

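Under all 17 alternatives 0 of the 7 risk genes passed the threshold, and Lyplal1, Mboat7 and Ppp1r3b kept their direction. The filter, variance prior and replicate block settings cannot move a difference, so they do not bear on direction. The number of members at an unadjusted p under 0.05 stayed at 1, except for 3 when the clock score was a covariate and 2 when wild type replicate 1 was left out (1 to 2 over the leave-one-out fits). The share of 11.3% of all tested genes at that p belongs to the reported fit alone. No matching share is given for the alternatives, so whether 3 or 2 of the 7 exceeds the rate of the array was not tested. The direction turned for Pnpla3 (-0.0020), Samm50 (-0.087) and Tmc7 (-0.41) with the clock score. Over the leave-one-out fits, Pnpla3 ran from 0.021 to 0.48, Mboat7 from 0.081 to 0.23, Ppp1r3b from 0.12 to 0.31, Hsd17b13 from -0.016 to 0.062, Tmc4 from -0.18 to 0.0082, Trib1 from -0.18 to 0.031 and Hsd17b11 from -0.12 to 0.021. With the dimmer probe set, an alternative chosen after seeing the data, Tmc4 turned to 0.050 and Ppp1r3b to -0.077, and the mean of both probe sets put Ppp1r3b at 0.064. The cause of these shifts was not tested. Srebf1 (1.01) and Abcb4 (-0.36) passed with a trended prior (limma adjusted p = 0.0291 and 0.0394) and with a trended and robust prior (0.0359 and 0.0374). Of all tested genes, 9 passed as reported, and the number was 2 with no filter, 28 with a stricter filter, 75 with a trended prior, 73 with a trended and robust prior, 25 with array weights, 24 on the mean of a gene's probe sets, 2 with the replicate block, 1 with the clock score, and 1 to 12 over the leave-one-out fits. Same-numbered arrays of the groups deviated together at r of 0.10, -0.11, -0.03 and -0.04. For knock-in replicate 1 the wild type array of the same number had the highest r. For knock-in replicates 2, 3 and 4 a wild type array of another number did. Whether same-numbered samples share more than a number was not tested. With the replicate block 1 member was at an unadjusted p under 0.05. The lowest array of Pnpla3 was at 4.33, against dim limits of 3.46 to 3.50, and the part of signal in its spread was not tested. Hsd17b13 lies near the top of the scale.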
